A study of Mus musculus with 86 samples.

Results

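The resting deep dermis of mouse back skin was examined through its CD45-positive areas, set against the PanCK-positive areas of the same layer. CD45 is a phosphatase on the surface of leukocytes and is used as their general marker, while PanCK is an antibody stain for cytokeratins, the filament proteins of epithelial cells. The members were all segments that the labels place in the deep dermis at 0 h, 12 of the 85 tissue segments of the series. There were 6 CD45 segments and 6 PanCK segments, 2 of each kind from each of 3 mice (208, 210 and 219). All mice were female wild-type C57BL/6 animals of 12 to 16 weeks that received a single UVB dose of 500 mJ/cm2 (290 to 320 nm) on the shaved back under isoflurane. The labels count the biopsy times 0, 6 and 24 h from that exposure and name no unexposed skin, so resting here means the 0 h biopsies. Per the labels' protocols, regions were placed on the scanned section and split by staining into the 2 kinds of area. How the regions were picked within a section is not stated, and the skin layer stands in the labels' genotype field. In what follows, CD45 epidermis, PanCK epidermis and CD45 adipose segments at 0 h, and deep dermal segments at 6 and 24 h, serve for comparison.

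In digital spatial profiling (GeoMx), probes bound to RNA in a section carry barcodes that ultraviolet light releases from a chosen area, and the released barcodes are counted by sequencing. The deep dermis is a collagen-rich tissue built by fibroblasts, with vessels, nerves and scattered resident leukocytes such as macrophages, mast cells, dendritic cells and T cells. Its epithelium is that of the skin appendages, chiefly the lower parts of hair follicles, which renew in cycles of growth and rest. A CD45 area is a piece of tissue and can hold RNA of cells that touch the stained ones. No deposited file pairs a probe with a gene. Probes therefore appear by identifier, and neither kind of area could be checked against the defining genes of leukocytes or epithelium.

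Segment totals ran from 15215 to 47563 counts in CD45 areas (median 34350) and from 18042 to 94006 in PanCK areas (median 52470.5), against 19 counts in a control without template. Summed over the segments of a mouse, the CD45 areas held 80779, 71797 and 35199 counts and the PanCK areas 113948, 153794 and 59950 counts in mice 208, 210 and 219. The CD45 areas were thus the shallower ones in 3 of 3 mice, and mouse 219 was the shallowest in both. The mouse was the replicate, because the segments of a mouse share their animal and section. An SD covers only the spread between these 3 animals. The blocked tests rest on the spread left once the level of each mouse or biopsy is removed, pooled over all sums of a fit. Both come from these 3 animals alone.

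CD45 segments resembled each other less than PanCK segments did. Over the 1709 probes tested below, log2(CPM + 1) values (CPM, counts scaled to 1e+06 per segment) correlated with a median r of 0.274 between CD45 segments of different mice (0.235 to 0.453) and 0.581 between PanCK segments of different mice (0.357 to 0.650). These pairs of segments share probes and differ in depth. With every segment thinned to 15215 counts, the median was 0.205 for CD45 pairs (0.173 to 0.335) and 0.325 for PanCK pairs (0.253 to 0.389), so the order of the medians held at equal depth and the ranges overlapped. CD45 with PanCK segments gave a median of 0.153 in different mice and 0.182 in the same mouse after thinning. Segments of the same mouse were not much more alike than segments of different mice. Their thinned r was 0.172 to 0.269 for the 3 CD45 pairs and 0.310 to 0.383 for the 3 PanCK pairs.

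CD45 areas of the resting deep dermis differed from the epithelium of the same layer in 258 of 1709 tested probes, 15.1% of them. Of these, 148 (8.66% of tested probes) stood higher in CD45 areas, with a median log2 fold of 2.26, and 110 (6.44%) stood lower, with a median log2 fold of -1.86. Beyond 4-fold, 96 were higher and 47 lower, and beyond 16-fold 5 were higher and 3 lower. Calls had a Benjamini-Hochberg (BH) adjusted p under 0.05 in the quasi-likelihood (QL) F test of edgeR, blocked by mouse, in which all 15 sums of the 0 h biopsies shared 1 estimate of the spread. The median probe of the higher list stood at 206 CPM in CD45 areas and 54.4 CPM in PanCK areas, and that of the lower list at 80.4 CPM in CD45 areas and 361 CPM in PanCK areas. In bulk areas such as these, fewer cells of a type and less RNA per cell cannot be told apart. The median of all tested probes was -0.01, which the scaling (TMM) sets near 0. When counts were scaled instead to the 5000 scarcest probes, that median moved to -0.64 and the split turned to 67 higher and 274 lower, with 67 of the 148 higher and 110 of the 110 lower calls kept. The count was 158 of 1657 tested probes without mouse 208, 124 of 1900 without mouse 210 and 113 of 3482 without mouse 219. These kept 80, 57 and 55 of the 148 higher calls and 65, 44 and 41 of the 110 lower calls. With the filter on low counts run over the 6 deep dermal sums alone, 818 probes were tested and 182 of them (22.2%) called, and with those 6 sums also fitted alone, 162 of the 818 (19.8%; 77 higher, 85 lower).

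**Figure D1:**
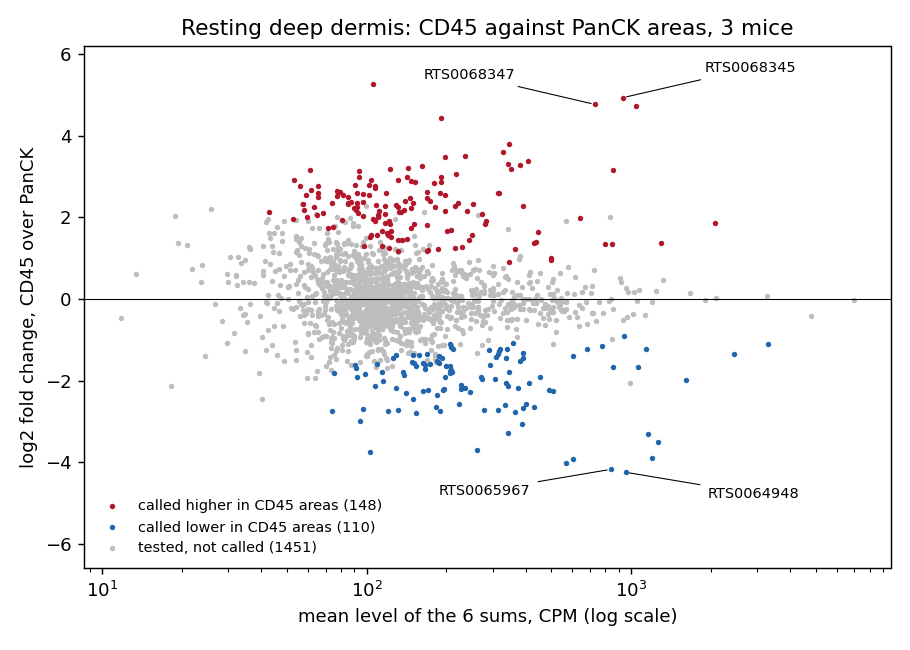
Each point is 1 of 1709 tested probes, with its mean level over the 6 deep dermal sums at 0 h on the x axis (CPM, log scale) and its log2 fold change, CD45 over PanCK, on the y axis. Red points are the 148 called higher and blue points the 110 called lower in CD45 areas, and the lines point to the 4 named probes, which lie at the outer edge among the abundant probes.

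The 2 lists lay at different abundances. Of the 148 higher probes, 86 were above the median level of tested probes and 62 at or below it, against 97 and 13 of the 110 lower ones. The scarcest probes averaged 30.5 CPM in CD45 areas and 23.0 CPM in PanCK areas. In CD45 areas all 148 higher probes stood above 2 times that level, and 87 of them also did in PanCK areas. All 110 lower probes exceeded the same limit in PanCK areas, and 77 in CD45 areas. Of all 1709 tested probes, 1459 exceeded the limit in CD45 areas and 1546 in PanCK areas. The lower list thus passed it less often in CD45 areas than tested probes did, and the higher list less often in PanCK areas. The same levels chose the lists, so these counts describe them only.

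All 3 CD45 sums lay above all 3 PanCK sums for 113 of the 148 higher probes, against 9.13% of all tested probes, and below them for 102 of the 110 lower probes, against 21.3%. Over single segments, all 6 CD45 values lay above all 6 PanCK values for 19 of the higher probes, against 1.11% of all tested probes, and below them for 40 of the lower probes, against 3.51% of all tested probes. The sign was the same in 3 of 3 mice for 133 of 148 higher and 109 of 110 lower probes. These counts come from the contrast that chose the lists and describe them only.

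RTS0068345 and RTS0068347 had the smallest p among the probes called higher in CD45 areas with the same sign in 3 of 3 mice; the highest log2 fold of the list was 5.26. RTS0068345 stood at 1461, 2215 and 1733 CPM in the CD45 sums of mice 208, 210 and 219, against 96.5, 65.0 and 33.4 CPM in the PanCK sums. Its 6 CD45 segments ran from 1409 to 2367 CPM (median 1746) and its 6 PanCK segments from 23.9 to 111 CPM (median 69.5), so no segment overlapped. It was the 9th most abundant probe of CD45 areas by mean level and held rank 3018 in PanCK areas. Its log2 fold change was 4.93 (SE 0.37; BH-adjusted p = 5.10e-08, edgeR QL test), higher in 3 of 3 mice. RTS0068347 had 1275, 1992 and 938 CPM in the CD45 sums, against 52.7, 84.5 and 33.4 CPM in the PanCK sums. Its segments did not overlap either, with 854 to 2029 CPM in CD45 areas (median 1319) and 23.9 to 95.7 CPM in PanCK areas (median 56.8). The log2 fold change was 4.77 (SE 0.38; BH-adjusted p = 7.37e-08, edgeR QL test), with ranks of 16 in CD45 areas and 3803 in PanCK areas. The PanCK levels rest on 11, 10 and 2 counts for RTS0068345 and on 6, 13 and 2 counts for RTS0068347. The folds are therefore less exact than the direction.

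RTS0064948 and RTS0065967 had the smallest p among the probes called lower in CD45 areas with the same sign in 3 of 3 mice. RTS0064948 stood at 37.1, 13.9 and 256 CPM in the CD45 sums of mice 208, 210 and 219 (3, 1 and 9 counts), against 1009, 1456 and 2969 CPM in the PanCK sums (115, 224 and 178 counts). The sums were far apart, but the segments overlapped: CD45 segments ran from 0 to 400 CPM (median 43.9) and PanCK segments from 133 to 3104 CPM (median 1664). The log2 fold change was -4.25 (SE 0.38; BH-adjusted p = 2.63e-07, edgeR QL test), lower in 3 of 3 mice, and the probe had rank 1366 in CD45 areas and rank 12 in PanCK areas. RTS0065967 had 49.5, 55.7 and 142 CPM in the CD45 sums (4, 4 and 5 counts), against 1395, 1216 and 2168 CPM in the PanCK sums (159, 187 and 130 counts). Its CD45 segments ran from 0 to 250 CPM (median 51.1) and its PanCK segments from 332 to 2439 CPM (median 1702), with no overlap. The log2 fold change was -4.18 (SE 0.39; BH-adjusted p = 3.83e-07, edgeR QL test). For both probes the low PanCK value was segment 2 of mouse 208 and the high CD45 value was segment 2 of mouse 219. All 4 named probes kept their direction and call in 26 of 26 alternatives, among them the omission of each mouse and of each of the 12 segments. They were chosen for the smallest p of this same contrast, which favours that outcome, so it describes them only.

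**Figure D2:**
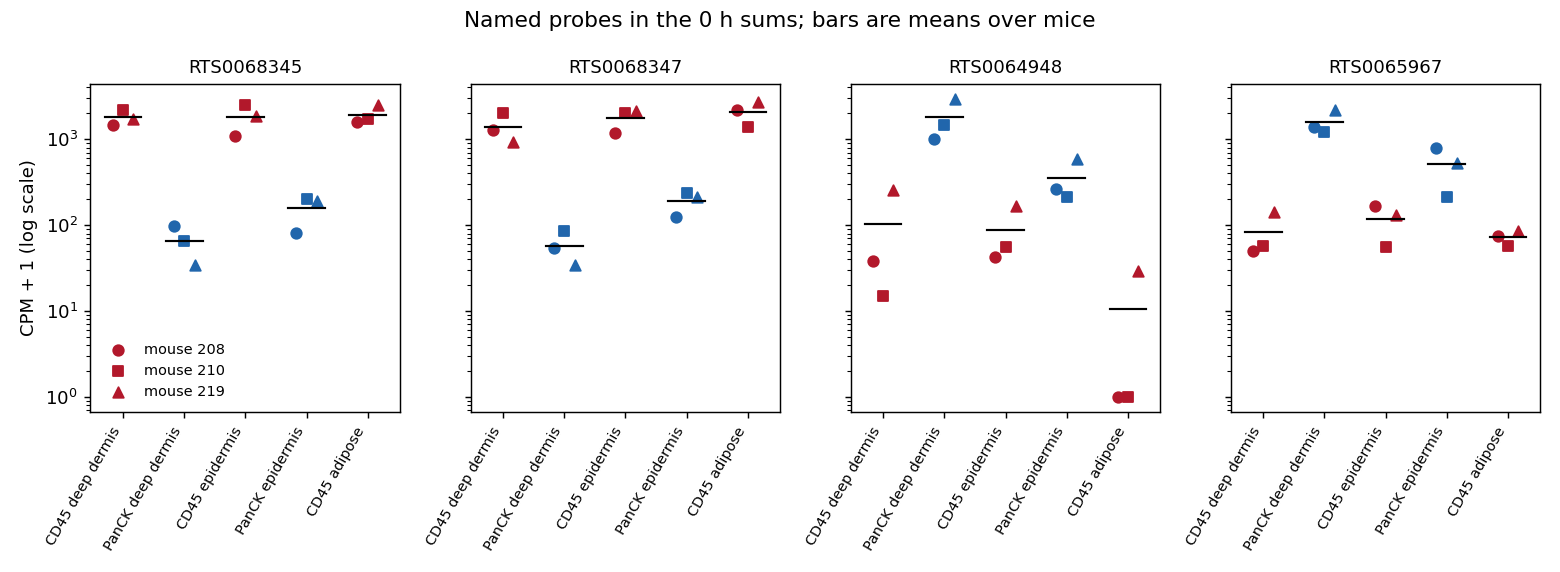
Each panel shows 1 named probe in the 5 compartments at 0 h, with CPM + 1 on a log y axis, 1 symbol per mouse, red for CD45 and blue for PanCK areas, and black bars for means over 3 mice. RTS0068345 and RTS0068347 stand at 938 CPM or above in every CD45 sum, while RTS0064948 and RTS0065967 are highest in the PanCK sums of the deep dermis.

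Some of the calls of the higher list rested on 1 segment. In 14 of the 148 higher probes, over 50% of the level summed over the 6 CD45 segments came from a single segment, which was segment 1 of mouse 208 in 12 of them. For the 110 lower probes no PanCK segment held as much, and the highest share was 44.4%. Segment 1 of mouse 208 was also the CD45 segment with the lowest value for 59 of the 148 higher probes. It held 18.7% of its counts on the scarcest probes, the highest share among the 6 CD45 segments (11.5 to 18.7%). Without that segment, 248 probes were called (139 higher, 109 lower), among them 121 of the 148 and 100 of the 110. RTS0081318, chosen after its values were seen, shows the pattern. It had 4419, 97.5 and 142 CPM in the CD45 sums of mice 208, 210 and 219, against 263, 156 and 33.4 CPM in the PanCK sums. Its log2 fold change of 3.16 (SE 0.80; BH-adjusted p = 0.00980, edgeR QL test) came from segment 1 of mouse 208, at 7464 CPM, and was -0.53 (BH-adjusted p = 0.648, edgeR QL test) without it.

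Among the PanCK segments, 1 had a smaller share of counts on the lower list than the others. The 110 lower probes held 4.08% of the counts in segment 2 of mouse 208 and 5.67 to 8.55% in the other 5 PanCK segments, against 0.933 to 1.90% in the CD45 segments. For 57 of the 110, that segment had the lowest of the 6 PanCK values. It also had the highest share of counts on the 148 higher probes among PanCK segments, 1.84%, against 0.870 to 1.75% in the others and 3.31 to 6.53% in CD45 segments. Without it, 266 probes were called (149 higher, 117 lower), with 135 of the 148 and 103 of the 110 among them. Without segment 1 of mouse 208, the other PanCK segment of that mouse, the count was 186 (114 higher, 72 lower), the lowest of the 12 omissions of 1 segment.

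The 148 higher probes took a larger share of counts in the CD45 areas of the adipose layer, whose samples did not enter that contrast, although they shared the fit's filter, scaling and estimate of spread. The list held 5.20, 6.08 and 3.71% of counts in the CD45 deep dermal sums of mice 208, 210 and 219, against 1.33, 1.58 and 0.954% in the PanCK deep dermal sums. It held 10.98, 7.17 and 7.59% in the adipose CD45 sums, and all 3 of these were above all 3 deep dermal CD45 sums. Each adipose sum at 0 h is a single segment. In the CD45 epidermis the share was 3.37% ± 0.53 (SD, n = 3) and in the PanCK epidermis 1.39% ± 0.08. The mean level in adipose CD45 areas exceeded that in deep dermal CD45 areas for 110 of the 148 probes (74.3%), against 55.4% of all tested probes. All 3 adipose CD45 sums lay above all 3 deep dermal PanCK sums for 118 of the 148, against 16.9% of all tested probes, although this comparison shares its PanCK sums with the choice of the list. The filter on low counts ran over all 15 sums, adipose ones included, and only 66 of the 148 would pass it on the 6 deep dermal sums alone. Those 66 held 2.72 to 4.51% of counts in the deep dermal CD45 sums and 4.90 to 7.501% in the adipose CD45 sums, and the mean level was higher in adipose CD45 areas for 54 of them (81.8%), against 52.0% of the 818 probes that pass that filter.

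The 110 lower probes were chosen for high values in the deep dermal epithelium, and beyond it they took their largest share in the PanCK epidermis. They held 1.502% ± 0.19 of counts in the CD45 deep dermis and 6.77% ± 1.21 in the PanCK deep dermis (SD, n = 3 each). The share was 4.49% ± 0.49 in the PanCK epidermis, 2.299% ± 0.33 in the CD45 epidermis and 1.11% ± 0.19 in CD45 adipose. All 3 adipose CD45 sums lay below all 3 deep dermal PanCK sums for 103 of the 110, against 23.8% of all tested probes, again with PanCK sums that also chose the list.

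**Figure D3:**
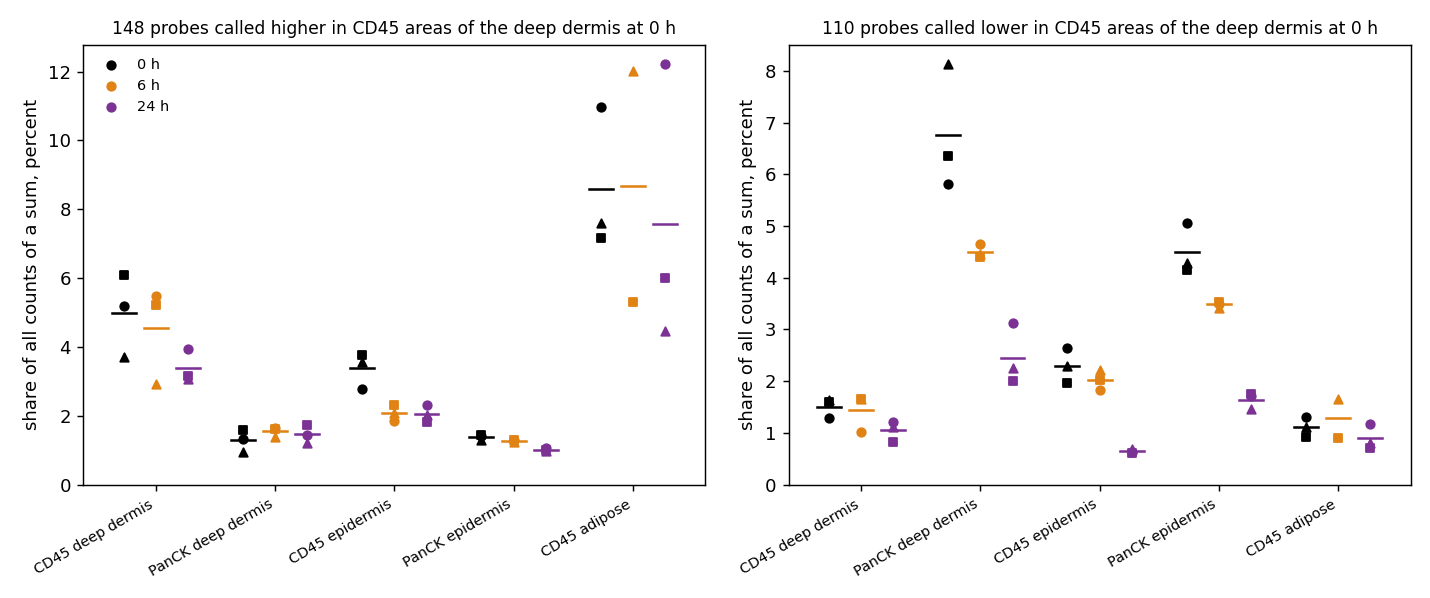
The share of all counts of a sum, in percent, on the 148 probes called higher (left) and the 110 called lower (right) in deep dermal CD45 areas at 0 h, by compartment and time, with 1 symbol per mouse (circles 208, squares 210, triangles 219) and bars for means. The higher list takes its largest share in adipose CD45 areas, and the share of the lower list in PanCK deep dermis has a mean of 6.77, 4.50 and 2.46% at 0, 6 and 24 h. The 0 h deep dermal sums chose both lists, so smaller shares at the later times are not by themselves a change. A change of these shares over time was not tested.

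The same contrast in the epidermis separated many of the same probes. In the epidermis 275 of 1709 probes (16.1%) were called, 154 higher (9.01%) and 121 lower (7.08%) in CD45 areas. Of the 148 probes higher in deep dermal CD45 areas, 82 were also called higher in epidermal ones, which is 55.4% of the deep dermal and 53.2% of the epidermal list, and 2 were called the opposite way. Of the 110 lower probes, 32 were also called lower in the epidermis, 29.1% of the deep dermal and 26.4% of the epidermal list. The median log2 fold change in the epidermis was 1.49 over the 148 and -0.76 over the 110, beside -0.05 over all tested probes. Both contrasts came from the same mice.

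A difference between the layers itself was found for few probes. The CD45-PanCK contrast differed between deep dermis and epidermis for 19 of 1709 probes (1.11%), 8 with a higher value in the deep dermis (0.468%) and 11 with a lower one (0.644%), while 234 had an unadjusted p under 0.05. Among the 8 were 3 probes of the higher list, and among the 11 were 5 of the lower list and 1 of the higher list. This difference contains the deep dermal contrast that chose the lists, so nothing is read from these overlaps. RTS0064948 and RTS0065967 were among them: their contrasts were -1.90 and -1.87 in the epidermis, and the differences, deep dermis minus epidermis, were -2.34 (SE 0.55; adjusted p = 0.0408) and -2.31 (SE 0.54; BH-adjusted p = 0.0392) in the edgeR QL test. RTS0068345 and RTS0068347 were called in both layers, at 3.67 and 3.37 in the epidermis, and their differences of 1.26 (SE 0.48; adjusted p = 0.230) and 1.396 (SE 0.49; adjusted p = 0.202) missed the threshold of the edgeR QL test. The number of layer differences was small and moved with the setting: 7 without mouse 208, 0 without mouse 210 (197 at an unadjusted p under 0.05), 3 without mouse 219, 27 with DESeq2's test and 1 without the mouse block. It was 10 and 8 without segment 1 of the PanCK and segment 2 of the CD45 areas of mouse 208, and 11 without segment 2 of the PanCK areas of mouse 210.

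The 2 probes with the smallest p in each direction of the layer difference were chosen after their values were seen. RTS0064427 was high in every compartment but the PanCK epidermis. It averaged 404 ± 212 CPM in the CD45 and 543 ± 327 CPM in the PanCK deep dermis, 837 ± 488 CPM in the CD45 and 112 ± 43.8 CPM in the PanCK epidermis, and 386 ± 148 CPM in CD45 adipose (SD, n = 3 each). Its contrast was -0.13 in the deep dermis and 3.07 in the epidermis, a difference of -3.20 (SE 0.44; BH-adjusted p = 0.000930, edgeR QL test). RTS0064438 averaged 408 ± 286 CPM in the CD45 and 609.5 ± 374 CPM in the PanCK deep dermis, 421 ± 267 CPM in the CD45 and 86.2 ± 57.6 CPM in the PanCK epidermis. Its difference between layers was -2.74 (SE 0.41). Both probes were lowest in mouse 219, at 170.5 and 142 CPM in its deep dermal CD45 sum and 167 and 217 CPM in its PanCK sum.

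RTS0069791 was high in both kinds of area of the epidermis. It averaged 27491 ± 4219 CPM in the PanCK epidermis and 7107 ± 2401 CPM in the CD45 epidermis (SD, n = 3 each). It had 718, 390.0 and 881 CPM in the CD45 sums of the deep dermis in mice 208, 210 and 219, against 570.4, 293 and 834 CPM in the PanCK sums. The deep dermal sums of the 2 kinds overlapped, and its contrast was 0.53 there and -1.81 in the epidermis, a difference of 2.35 (SE 0.43). RTS0069528 was higher in CD45 areas of the deep dermis, with 149, 334 and 142 CPM against 35.1, 65.0 and 50.0 CPM in the PanCK sums, but lower in those of the epidermis, at 132 ± 60.7 CPM against 302 ± 32.7 CPM. Its contrasts were 2.31 in the deep dermis and -0.99 in the epidermis, and the difference was 3.30 (SE 0.50; BH-adjusted p = 0.00108, edgeR QL test). In CD45 adipose it stood at 496 ± 73.3 CPM.

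**Figure D4:**
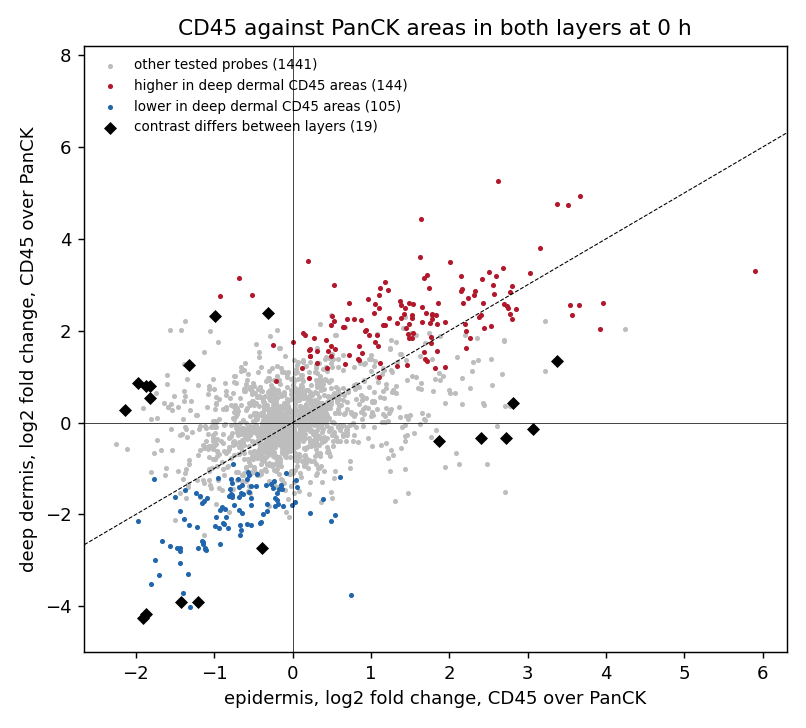
Each point is 1 of 1709 tested probes, with the log2 fold change, CD45 over PanCK, of the epidermis on the x axis and of the deep dermis on the y axis, both at 0 h. Black diamonds mark the 19 probes whose contrast differed between the layers, and the dashed line marks equal contrasts.

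The contrast of the resting deep dermis was followed into the 6 h and 24 h biopsies, in 1 fit of the 18 deep dermal sums with the biopsy as a block. At 6 h, 202 of 1598 tested probes were called (12.6%), 133 higher (8.32%) and 69 lower (4.32%) in CD45 areas. At 24 h there were 155 (9.7%), 118 higher (7.38%) and 37 lower (2.32%), or 69 higher and 206 lower with scaling to the scarcest probes. Without mouse 208, 2749 probes were tested, and 114 were called at 6 h and 93 at 24 h. Without mouse 210, 1317 were tested, and 81 were called at 6 h and 64 at 24 h. Of the 119 higher probes tested in this fit, 90 were called higher at 6 h, which is 75.6% of them and 67.7% of the 6 h list, and 66 at 24 h, which is 55.5% and 55.9%. Of the 108 lower probes tested, 51 were called lower at 6 h (47.2% and 73.9%) and 16 at 24 h (14.8% and 43.2%), while 1 was called higher at 24 h. Over the probes of the higher list the median log2 fold change was 2.27, 2.06 and 1.87 at 0, 6 and 24 h. Over those of the lower list it was -1.86, -1.404 and -0.56 at those times, beside -0.06 and -0.05 over all tested probes at 6 h and 24 h. The 0 h values chose the lists, so smaller medians at the later times are not by themselves a change.

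Tested as a change of the contrast itself, no probe passed at 6 h against 0 h (0 of 1598, 0%, in the edgeR QL test, 0 with DESeq2's test, and 62 at an unadjusted p under 0.05). Without mouse 210 it was 8, and without PanCK segment 1 of that mouse at 0 h it was 2, all with a lower contrast. At 24 h against 0 h, 14 of 1598 passed (0.876%), 11 with a higher (0.688%) and 3 with a lower contrast (0.188%), and 191 had an unadjusted p under 0.05. Of the 11, 8 were probes of the lower list, which as a whole made up 6.76% of the 1598 tested probes. Of the 3, 2 were probes of the higher list, which as a whole made up 7.45% of them. The change contains the 0 h contrast that chose both lists, which favours such overlaps, and nothing is read from them. The count was 6 without mouse 208, 0 without mouse 219 (286 at an unadjusted p under 0.05), 7 with DESeq2's test and 3 without the biopsy block. It was 3 without PanCK segment 1 of mouse 208 and 4 without CD45 segment 2 of that mouse.

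RTS0081166 and RTS0066290 had the smallest p among the 11 (chosen after their values were seen). RTS0081166 averaged 172 ± 60.9 CPM at 0 h, 294 ± 111 CPM at 6 h and 339.8 ± 164 CPM at 24 h in CD45 areas, and 2148 ± 842, 1196 ± 151 and 372 ± 208 CPM in PanCK areas at the same times (SD, n = 3 each). Its contrast was -3.32 at 0 h and 0.32 at 24 h, and the change at 24 h was 3.41 (SE 0.59; BH-adjusted p = 0.00589, edgeR QL test). RTS0066290 averaged 59.2 ± 23.3 CPM at 0 h and 87.1 ± 14.8 CPM at 24 h in CD45 areas, and 1144 ± 454 and 106 ± 41.7 CPM in PanCK areas. Its change was 3.96 (SE 0.70), with the same BH-adjusted p of 0.00589 (edgeR QL test). In both probes the PanCK areas held most of the movement and the contrast at 24 h was near 0. The named probes of CD45 areas were called at both later times: RTS0068345 had 3.62 at 6 h and 4.13 at 24 h, and RTS0068347 3.84 and 4.73. Meanwhile the level of RTS0068345 in CD45 areas was 1803 ± 382 CPM at 0 h, 866 ± 174 CPM at 6 h and 422 ± 219.7 CPM at 24 h. RTS0064948 was called at both later times, at -2.75 and -2.25. RTS0065967 was called at 6 h (-3.30), while its contrast of -1.25 at 24 h missed the threshold (BH-adjusted p = 0.156, edgeR QL test).

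The 2 probes with the smallest p among the 3 lower changes, also chosen after their values were seen, differed in kind. RTS0081318 had a change of -3.82 (SE 0.82; adjusted p = 0.0248) that was -0.71 (adjusted p = 0.798) without CD45 segment 1 of mouse 208, both by the edgeR QL test, and its call was lost in 3 of the 12 omissions of 1 segment. RTS0069796 had 508, 1031 and 313 CPM in the CD45 sums at 0 h, against 474, 1561 and 834 CPM in the PanCK sums, which overlapped. At 24 h it stood at 187 ± 49.9 CPM in CD45 areas and 1373 ± 817 CPM in PanCK areas (SD, n = 3), and the contrast changed by -2.34 (SE 0.53; BH-adjusted p = 0.0318, edgeR QL test). That call was lost in 7 of the 12 omissions of 1 segment, with changes of -2.63 to -1.63 and BH-adjusted p of 0.0579 to 0.232 (edgeR QL test) in those 7.

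**Figure D5:**
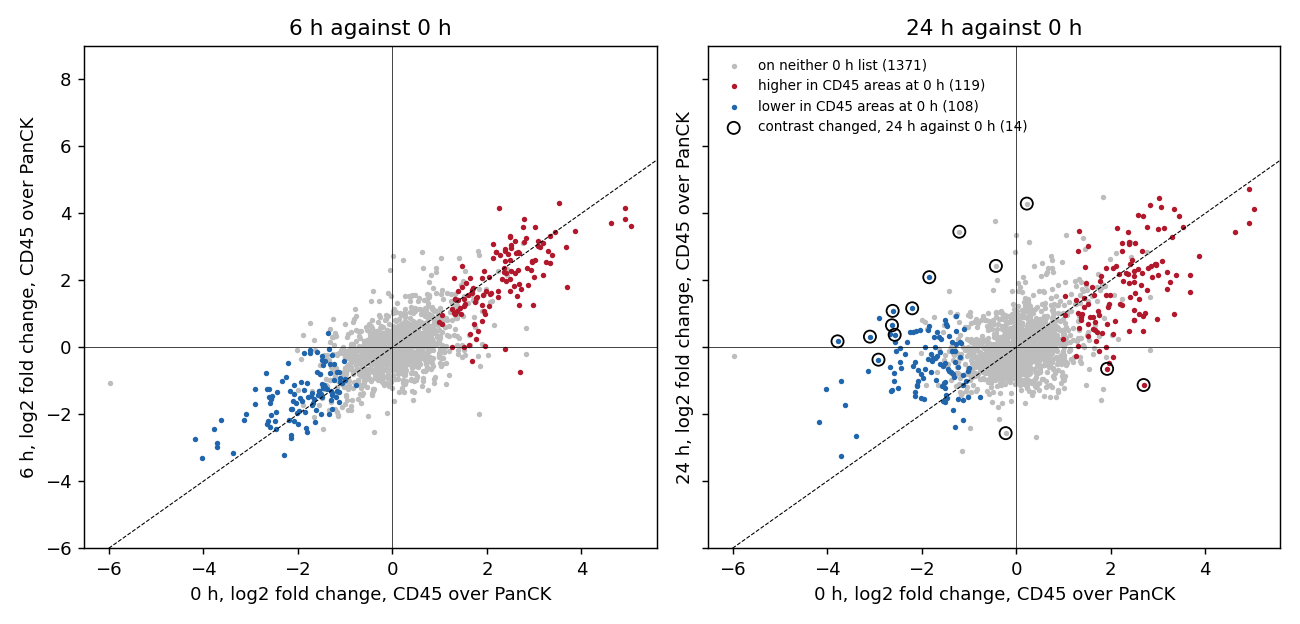
The log2 fold change, CD45 over PanCK, in the deep dermis at 6 h (left) and 24 h (right) on the y axis, against that at 0 h on the x axis, for 1598 probes. Red and blue points are the 119 and 108 tested probes of the higher and lower 0 h lists, and circles mark the 14 probes whose contrast changed at 24 h. The change contains the 0 h contrast that chose the lists, so nothing is read from the colours of the circled points.

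How evenly counts lay over the probes was also compared. The 100 most abundant probes held 11.5% ± 0.31 of counts in the CD45 sums and 12.3% ± 0.72 in the PanCK sums (SD, n = 3 each), lower in 3 of 3 mice. As means of the segments the shares were 12.8% ± 1.39 and 13.0% ± 0.89, lower in CD45 areas in 2 of 3 mice, so this difference depends on how segments are combined. The 5000 scarcest probes held 15.2% ± 1.83 in the CD45 sums and 11.5% ± 0.45 in the PanCK sums, higher in 3 of 3 mice. At an equal depth of 35199 counts, 14006 ± 796 probes had a count in CD45 sums and 13702 ± 50.7 in PanCK sums, more in 2 of 3 mice. The difference of 305 was -64.5 without mouse 219, and 5.86 when 3 or more counts were asked for. Exact permutation within 3 mice (two-sided) allows no p below 0.25, and these are therefore given as values. The 100 most abundant probes of each kind shared 50. Of the 100 of CD45 areas 87 were tested, and 23 of them were called higher and 5 lower there. Of the 100 of PanCK areas 99 were tested, and 2 of them were called higher and 32 lower in CD45 areas. Over all tested probes the calls were 8.66% higher and 6.44% lower, and since levels in the same sums chose these probes, the counts are a description.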

How the data were processed

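Each deposited file lists whole-number counts of probes in a segment, which the authors obtained, per the file headers, using version 2.3.3.10 of the GeoMx NGS Pipeline; these were 0.880 to 1.56% of aligned reads. Panel, aligner and build: not given in the sources used here. For each mouse, compartment and time, the counts of its segments were added up. Tests were edgeR 4.0.16 quasi-likelihood fits (R 4.3.3) with TMM scaling and filterByExpr at a minimum count of 10. An SE is the log2 fold divided by the root of F. The 0 h fit held 15 sums with the mouse as a block (8 residual degrees of freedom); the fit over times held 18 deep dermal sums blocked by biopsy (6). Mice were paired by the labels' mouse numbers, and the labels' batch field names the mouse and 1 scan. As a check, deviations of CD45 and PanCK sums from their group means correlated at 0.109, 0.110 and 0.0977 within mice and at -0.0787 to -0.0116 between mice. For each probe these deviations cancel out over the mice, so positive values within mice force negative ones between mice on average. The negative values therefore carry no separate information. The script was tested on simulated data. CPM are counts scaled to 1e+06 per sum or segment. The scarcest probes are the 5000 with the lowest mean share of counts in the deep dermis at 6 and 24 h.

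Named probes were the 2 higher and the 2 lower with the smallest p among calls of the same direction in 3 of 3 mice; others are said to be chosen after their values were seen. The members, lists and tests were chosen with earlier results of these data known. Alternatives were DESeq2 1.42.0 (size factors and test), upper quartile scaling, scaling to and filtering on the scarcest probes, other filters and sample sets, limma 3.58.1 on mean log2(CPM + 1), no block, and omission of each mouse. Omission of each 0 h segment, and of 1 shallow 6 h segment, was added after seeing the data. Files were read and plotted with Python 3.11.15.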

Additional observations from a re-analysis of the deposited data

Results flagged for a closer look

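Dixon's ratio was applied to 30 groups of 6 deep dermal segments at 0 h. The groups were total counts, shares and 12 named probes, each in CD45 and in PanCK areas. Chance flags about 1 group in 20 only where groups are picked without sight of the data. The 12 probes were picked for small p in tests that used these same segments, so that rate is no measure here. In 5 of the 30 groups, 1 segment stood far above the others. In CD45 areas these were RTS0064948 at 400.3 CPM in segment 2 of mouse 219 and RTS0081318 at 7464 CPM in segment 1 of mouse 208. In PanCK areas they were RTS0069791 at 1939.9 CPM, RTS0081318 at 620.1 CPM and RTS0069796 at 2329.6 CPM.

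The CD45-PanCK log2 difference of 7 named probes differed between layers at 0 h by edgeR's test of that difference. RTS0069528, RTS0069791, RTS0064427 and RTS0064438 were named for the smallest p in that test, so their passing it was fixed in advance. RTS0064948 and RTS0065967 were named for the deep dermal contrast at 0 h, and RTS0066290 for a change that contains it. The layer difference contains that contrast as well, which favours their passing. Deep dermis minus epidermis was 3.30 for RTS0069528 and 2.35 for RTS0069791. It was -2.34 for RTS0064948, -2.31 for RTS0065967, -3.20 for RTS0064427, -2.74 for RTS0064438 and -2.70 for RTS0066290.

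The log2 difference also changed with time in the deep dermis for 4 named probes, by the same kind of test. These were named for the smallest p in that test, so their passing it was fixed in advance. The change, 24 h minus 0 h, was 3.41 for RTS0081166, 3.96 for RTS0066290, -3.82 for RTS0081318 and -2.34 for RTS0069796. Without CD45 segment 1 of mouse 208 at 0 h, the change of RTS0081318 was -0.71. The call of RTS0069796 was lost in 7 of the 12 omissions of 1 segment.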

How the results depend on the processing

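With 3 mice and shallow CD45 areas, counts of calls moved with the setting, and each mouse and several segments mattered. No cause was tested. For the resting deep dermis, 258 of 1709 probes called became 162 of 818 with the 6 deep dermal sums alone (filter and fit), 182 of 818 with the filter alone on those sums, and 83 (34 higher, 49 lower) with limma on mean log2 values, 113 to 158 without 1 mouse, and 186 to 266 without 1 segment. Without the filter, 316 of 20175 probes were called, among them 57 of the 148 and 103 of the 110. Without the mouse block 234 were called. Omitting 1 mouse also changed the number of probes tested at 0 h, which then ran from 1657 to 3482. The 19 layer differences became 31 with scaling to the scarcest probes, 7 without the filter, 1 without the mouse block, 0 to 7 without 1 mouse and 8 to 21 without 1 segment. At 6 h, 202 calls became 127 without the filter, 128 with DESeq2's test and 81 to 146 without 1 mouse. At 24 h, 155 became 275 with scaling to the scarcest probes, 92 without the filter and 64 to 151 without 1 mouse. The 0 changes at 6 h against 0 h became 6 without the filter, 0 to 8 without 1 mouse and 0 to 2 without 1 segment. The 14 changes at 24 h against 0 h became 7 without the filter, 7 with DESeq2's test, 3 without the biopsy block, 0 to 10 without 1 mouse and 3 to 20 without 1 segment. The difference in probes detected at equal depth, CD45 minus PanCK, was 305, and without 1 mouse it ran from -64.5 (reversed, without mouse 219) to 765; it was 200.5 at 17599 counts and 5.86 with 3 or more counts. The difference in the share of the 100 most abundant probes was -0.79 percentage points, -0.16 with the mean of segments, -0.28 for the 20 and -0.84 for the 500 most abundant, and -1.08 to -0.43 without 1 mouse. No 0 h segment of the deep dermis was shallow, so that omission could not be run there. Counts of calls under the alternatives not named here stayed within 1.5 times.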

Other observations

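A pair of probes were high in a single segment and in neither list of deep dermal calls at 0 h. RTS0071531 stood at 31575 CPM in CD45 segment 2 of mouse 219, where it was the most abundant probe, and at 111 CPM or less in the other 11 deep dermal segments at 0 h; it did not pass the filter on low counts. RTS0069394 stood at 6801 CPM in PanCK segment 2 of mouse 219 and at 451 CPM or less in the other 11, and was not called (BH-adjusted p = 0.0686, edgeR QL test). In 6 of the 12 segments the most abundant probe was instead RTS0070220, at 5287 to 13310 CPM in both kinds of area. All 3 were chosen after their values were seen.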
